A study of Mus musculus with 30 samples.

Results

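The response of control cells to PDGF-BB was measured by RNA sequencing, across all genes with enough counts to be tested. The 8 libraries of this comparison were chosen by their labels from the 30 libraries of the series: 4 of PDGF-BB and 4 of no treatment, all from sequencing run 3, which holds 20 libraries in 5 groups of 4. Per the labels the cells are smooth muscle cells of the mouse aorta in culture, although the growth protocol speaks of mouse and rat cells. Both groups carried a control GapmeR, an antisense oligonucleotide design that recruits RNase H to an RNA it pairs with, and were transfected for at least 24 h. Both were kept without serum for 48 h. One group then received human PDGF-BB at 10 to 30 ng/ml for 24 h, and the other received nothing. The other 12 libraries of run 3 are 4 of control GapmeR cells given angiotensin II at 10 ng/ml for 24 h, which are compared with PDGF-BB at the end, and 8 of cells with a knockdown of long CASC15, 4 untreated and 4 given angiotensin II. The library names give these 8 as 1 knockdown, although the titles number its target upward from CASC15, differently in each library. The knockdown libraries are in no comparison here, but all 20 libraries entered the fit, so they bear on the estimates of spread and batch. The labels give each library a batch, P16, P17, P18 or P19, which in run 3 runs with replicate numbers 1 to 4, and libraries of the same batch were compared as pairs. The labels do not say what P stands for, so whether the batches are passages of 1 culture or separate preparations is not given. Nothing in the labels says that they came from separate animals, so the p-values measure the spread between these libraries.

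PDGF-BB is a dimer of PDGF B chains that binds the receptor tyrosine kinases PDGFR-alpha and PDGFR-beta. The receptors pass the signal through RAS and the ERK kinases, through PI3 kinase and AKT, and through phospholipase C gamma. In the vessel wall the ligand is known as a mitogen and chemoattractant for smooth muscle cells and as a factor that lowers their contractile genes, a change called phenotypic switching.

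Library totals were 18382306 to 30362047 expected counts in untreated cells and 18703554 to 21270146 under PDGF-BB, with 17157 to 18392 and 16496 to 16897 genes of at least 3 counts. Batch P19 stood apart from the other batches. On the second principal component of the control libraries of run 3, which held 12% of the variance, the P19 libraries lay at 32.4 (untreated) and 28.7 (PDGF-BB), and the untreated and PDGF-BB libraries of the other batches at -23.6 to -4.9. The counts of 2 libraries of the same group differed by a chi-square of 27.5 to 31.2 per degree of freedom where 1 of them was P19, and by 4.21 to 8.56 otherwise, so no library was a copy of another. In the untreated libraries, P19 was the highest of the 4 for 29 of 30 mitosis genes and for 24 of 24 cholesterol synthesis genes, against 5083 of all 15103 genes tested. The same held for 36 of 44 oxidative phosphorylation, 19 of 20 NRF2 and 18 of 22 p53 target genes. It held for 1 of 13 complement genes and 0 of 10 small leucine-rich proteoglycans. Counts without P19 are given below wherever a result turns on it.

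The labelled cell type was checked against its markers. Acta2, smooth muscle alpha-actin, was present at 212 ± 12.9 CPM in untreated cells. Of the other smooth muscle markers checked, Smtn, smoothelin, was present at 46.7 ± 3.32 CPM in untreated cells, and the coactivator Myocd lay at 2.5 ± 0.685 CPM. The remaining markers were at or near 0: the 8 libraries held at most 3 counts of Myh11 and at most 2 of Cnn1, and Lmod1, Des and Tagln lay at 0.755 ± 0.127 CPM, 1.29 ± 0.14 CPM and 1.06 ± 0.412 CPM in untreated cells. CPM are counts per 1000000 counts of a library, after TMM scaling, and values with ± are the mean and SD of the 4 libraries of a group. A log2 change is the fitted log2 of PDGF-BB over untreated. SE is its standard error, derived from the test as the absolute log2 change over the square root of the F statistic. Summed over 8 markers, endothelial genes lay at 3.03 to 5.12 CPM in untreated libraries and 3.59 to 4.82 under PDGF-BB, with 2 of 8 at 0 throughout. The 8 leukocyte markers lay at 0.898 to 1.81 and 0.916 to 1.89 CPM, with 3 of 8 at 0 throughout. The 5 adipocyte markers lay at 0.269 to 0.547 and 0.204 to 0.513 CPM, and 8 adventitial fibroblast markers, of which Pdgfra, Col14a1 and Ly6a also belong to other lists, at 434 to 661 and 362 to 537 CPM. Of these 8, Pdgfra and Col14a1 were called lower and Ly6a higher, Pi16, Clec3b and Scara5 were not called, and Dpt and Dpep1 had too few counts to be tested. The 4 Schwann cell markers lay at 6.44 to 8.25 CPM untreated and 3.87 to 5.79 under PDGF-BB. Epithelial markers moved with the treatment: 6 markers summed to 276 to 327 CPM in untreated libraries and 444 to 491 CPM under PDGF-BB, nearly all from Krt19 and Cdh1. The call of Krt19 was lost without pairing by batch (adjusted p = 0.055), and that of Cdh1 without P17 (0.0551) and without the P19 untreated library (0.0506), while Krt8 was not called and Epcam, Krt5 and Krt18 had too few counts to be tested. Striated muscle markers moved as well, from 16.2 to 23.5 CPM up to 60.0 to 64.2 CPM, through Tnnt2, cardiac troponin T, with Myh6, Ckm, Myod1, Myh2, Actn2 and Tnnt3 too low to be tested. In bulk RNA, fewer cells of a type and less RNA per cell cannot be told apart, and the part of other cell types in the results was not tested.

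Of 15103 genes tested, 8238 (54.5%) were called at an adjusted p under 0.05. Of these, 4281 (28.3%) were higher and 3957 (26.2%) were lower under PDGF-BB, and the median log2 fold change of all genes tested was -0.02. Of the called genes, 788 were at least 2-fold higher and 872 at least 2-fold lower. Without batch P19 there were 7425 calls, 3663 higher and 3762 lower. Without pairing by batch there were 6586, of which 6573 were also called with it. The split depended on the scaling: with library totals in place of TMM factors, 3524 genes were higher and 4884 lower, so that 41.9% of calls were higher against 52% here. Gene lists are read below against these shares and this median.

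Cell division genes moved the most and are given only as the setting of the other results. Mki67, the proliferation antigen Ki-67, read 22.3, 14.5, 24.1 and 48.8 CPM in untreated libraries of P16 to P19 and 391, 376, 387 and 353 CPM under PDGF-BB. The replication licensing gene Mcm2 read 24.7, 26.3, 30.02 and 36.5 CPM and 153, 157, 155 and 207 CPM. All PDGF-BB libraries were above all untreated ones for both, and untreated P19 was the highest untreated library. Of 30 mitosis genes tested, 29 rose and the securin gene Pttg1 fell (25.1 ± 2.22 to 20.8 ± 0.679 CPM, adjusted p = 0.00971, and 0.0804 without P17), with a median log2 fold change of 3.62. All 36 DNA replication genes rose, with a median of 2.27. Among genes with an established symbol at a mean of at least 5 CPM, with no overlap between groups and outside these 2 lists, the 8 largest rises were Ankle1, Pclaf, Pbk, Phf19, Ska1, Mxd3, Sprr2a2 and Neil3. Ankle1, Pclaf, Pbk, Ska1 and Neil3 are themselves known from DNA repair, replication or mitosis. Phf19, a subunit of Polycomb repressive complex 2, rose from 1.49 ± 0.502 to 28.2 ± 0.989 CPM, and Mxd3, a partner of MAX, from 1.64 ± 0.532 to 27 ± 2.92 CPM. Sprr2a2, a cornified envelope protein gene of epithelia, is an exception. It read 1.89, 1.14, 1.2 and 2.61 CPM in untreated libraries and 37.6, 26, 26.7 and 29.4 CPM under PDGF-BB (log2 change 4.16 with SE 0.18, adjusted p = 1.19e-15), and it has near-identical copies in the Sprr2a cluster between which reads may be divided. The largest falls by the same rule included Fat4, Ogn, Hmcn1, Smoc1, Gria4, Pdgfra and Sema5a, which are described with their groups where they have one. Among those without one, Smoc1, a secreted matricellular protein, read 79.96, 76.1, 78.5 and 38.6 CPM in untreated libraries and 13.9, 13, 11.6 and 2.8 CPM under PDGF-BB, lowest in P19 in both groups. The AMPA receptor subunit gene Gria4 fell from 11.5 ± 3.62 to 1.94 ± 0.83 CPM and Hmcn1, the matrix protein hemicentin-1, from 18.6 ± 3.57 to 2.73 ± 0.696 CPM.

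**Figure D1:**
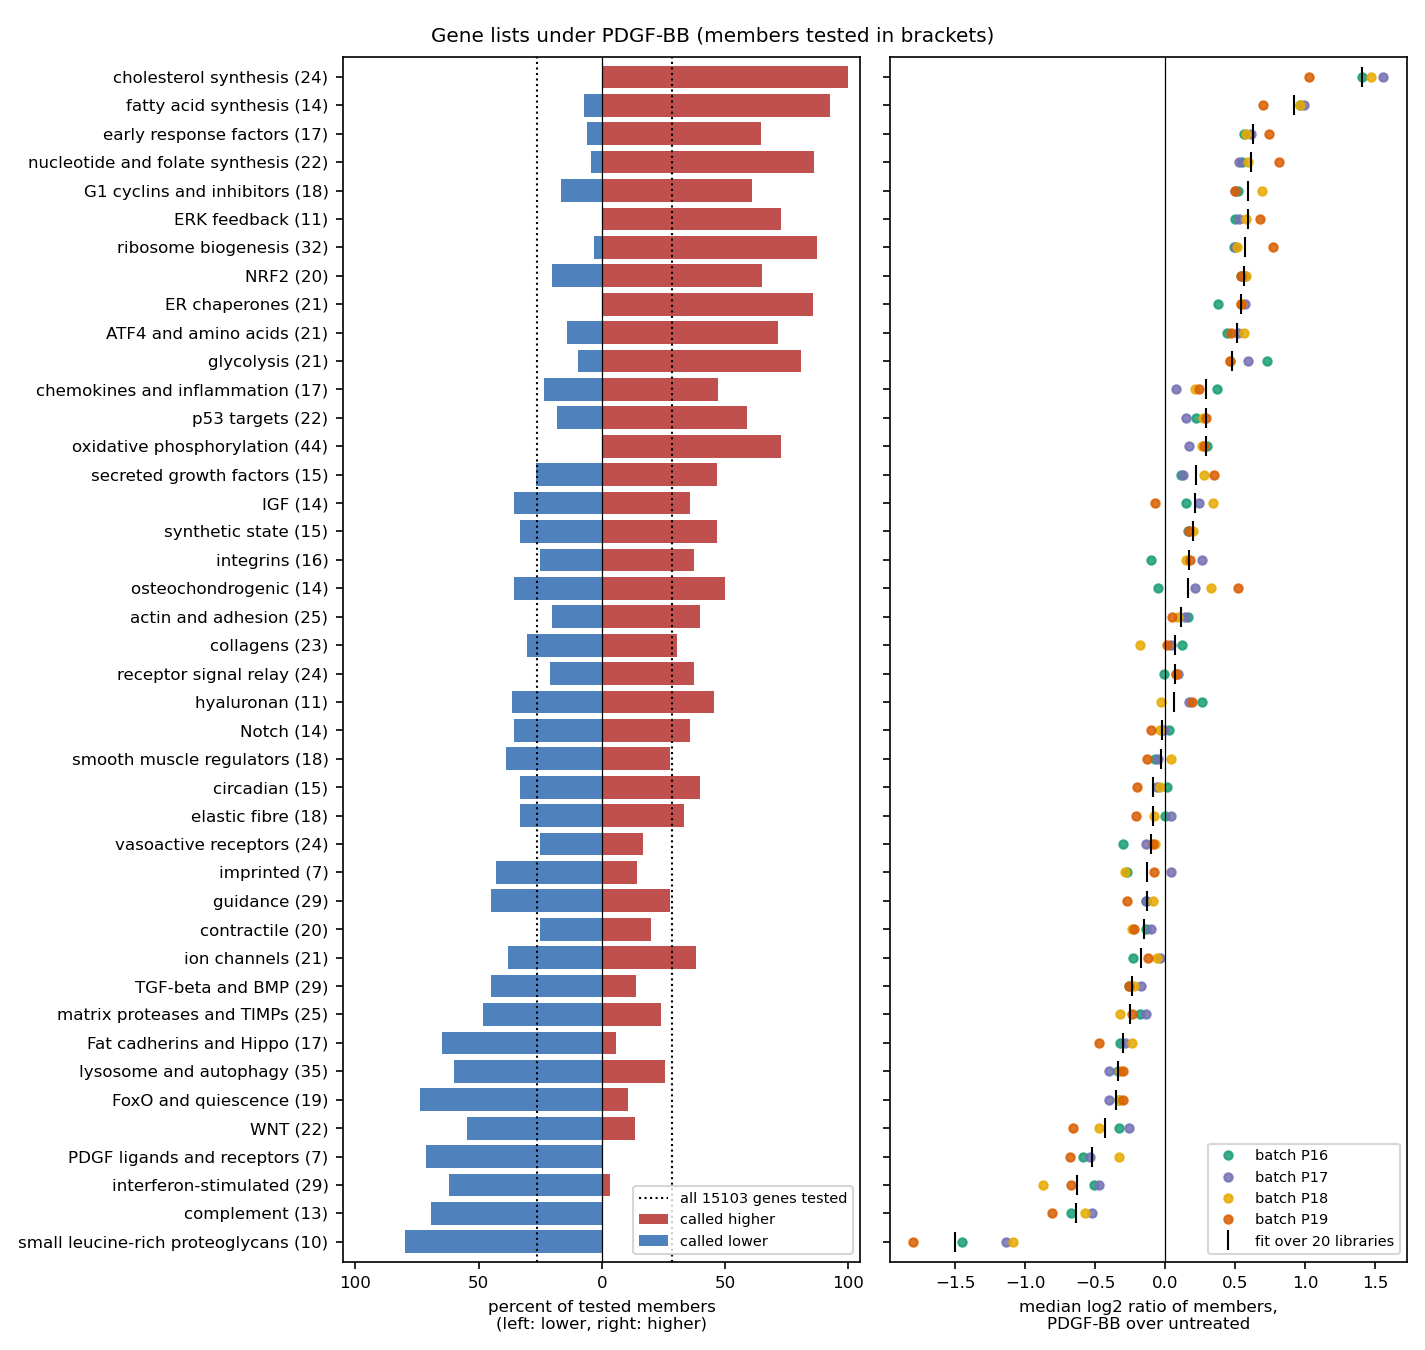
Left: percent of the tested members of 42 gene lists called higher (right of 0) or lower (left of 0) under PDGF-BB, with dotted lines at the shares of all 15103 genes tested, 28.3% higher and 26.2% lower. Right: median log2 ratio of the members within each batch (dots) and in the fit (bars). Cholesterol synthesis, with 24 of 24 called higher and a median of 1.41, stands at the top and small leucine-rich proteoglycans, with 8 of 10 called lower and a median of -1.50, at the bottom.

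The ligands and receptors of the PDGF family were lower where they changed. Of 7 tested, 5 were called lower and none higher (median -0.52), and 3 were lower without pairing by batch. Pdgfra, the receptor PDGFR-alpha, read 13.8, 18.5, 21.1 and 7.18 CPM in untreated libraries and 3.42, 4.11, 3.06 and 1.83 CPM under PDGF-BB (log2 change -2.30 with SE 0.24, adjusted p = 1.93e-06). The groups did not overlap, which the rule for the largest falls required, and P19 was the lowest library of each. Pdgfrb, the receptor PDGFR-beta and the main PDGF receptor of smooth muscle, read 269, 286, 274 and 203 CPM and 183, 199, 177 and 155 CPM (log2 change -0.52 with SE 0.12, adjusted p = 0.003, and 0.0621 without pairing by batch). It fell in all 4 batches with no overlap. Among the ligands, Pdgfa fell from 15.7 ± 0.841 to 10.7 ± 1.44 CPM (log2 change -0.57 with SE 0.10, adjusted p = 4.01e-05) and Pdgfb from 11.6 ± 1.72 to 8.35 ± 0.99 CPM (log2 change -0.47 with SE 0.15, adjusted p = 0.0112; 0.0543 without P16 and 0.0533 without P17). Pdgfd fell from 6.7 ± 0.895 to 4.97 ± 0.951 CPM (log2 change -0.42 with SE 0.14, adjusted p = 0.0143), a call that was lost without P19 (adjusted p = 0.0599), without P16 (0.0579) and without pairing by batch (0.0729). Pdgfc was not called (6.7 ± 1.18 CPM and 6.4 ± 1.07 CPM, adjusted p = 0.771).

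Among the relay proteins that carry the receptor signal, 9 of 24 rose and 5 fell, all by less than 2-fold. Of the 24, 58.3% were called, close to the 54.5% of all genes. Their median of 0.07 was 0.01 without P19 and -0.01 with library totals in place of TMM factors. The GTPase gene Hras rose most (19.2 ± 1.84 to 31.6 ± 5.52 CPM), and the adaptor Gab1 fell most (119 ± 3.99 to 78 ± 5.28 CPM, log2 change -0.61 with SE 0.05, adjusted p = 7.78e-11). Genes that feed back on ERK were higher: 8 of 11 rose and none fell (median 0.59). Dusp6, a phosphatase that removes the activating phosphates of ERK, read 20.2, 22.1, 21.9 and 35.3 CPM in untreated libraries and 48.4, 55, 64.6 and 77.2 CPM under PDGF-BB (log2 change 1.33 with SE 0.14, adjusted p = 7.48e-07). Every PDGF-BB library was above every untreated one. Spry4, an inhibitor of receptor tyrosine kinase signalling, rose from 2.13 ± 0.818 to 9.82 ± 3.34 CPM (log2 change 2.19 with SE 0.17, adjusted p = 9.52e-11), and the nuclear ERK phosphatase Dusp5 from 3.23 ± 0.816 to 8.11 ± 1.89 CPM (log2 change 1.32 with SE 0.18, adjusted p = 6.89e-07).

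Early response transcription factors, best known for peaks within the first hours of stimulation, were higher after 24 h: 11 of 17 rose and 1 fell (median 0.63). Egr1, a zinc finger factor downstream of ERK and SRF, read 24.1, 33.1, 44.4 and 37.6 CPM in untreated libraries and 163, 175, 197 and 169.6 CPM under PDGF-BB (log2 change 2.34 with SE 0.22, adjusted p = 1.22e-06). The lowest PDGF-BB library was well above the highest untreated one. The orphan nuclear receptor Nr4a1 rose from 3.77 ± 0.368 to 11.9 ± 1.32 CPM (log2 change 1.66 with SE 0.13, adjusted p = 1.04e-10) and Ier2 from 14.7 ± 1.61 to 35.8 ± 4.73 CPM (log2 change 1.28 with SE 0.09, adjusted p = 2.3e-11). Fosl1, the AP-1 subunit FRA-1, was at 0.487 ± 0.188 CPM in untreated cells and rose to 4.98 ± 1.97 CPM (log2 change 3.35 with SE 0.38, adjusted p = 5.49e-08). Secreted growth factors split, with 7 of 15 higher and 4 lower. The EGF receptor ligands Ereg (8.67 ± 1.25 to 23.9 ± 6.54 CPM) and Areg (0.364 ± 0.0787 to 1.81 ± 0.847 CPM) rose, while Angpt2, the TIE2 ligand angiopoietin-2, fell from 46.4 ± 5.9 to 13.5 ± 3.71 CPM (log2 change -1.83 with SE 0.19, adjusted p = 1.8e-06) and Fgf18 fell from 9.07 ± 1.2 to 2.99 ± 1.14 CPM.

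**Figure D2:**
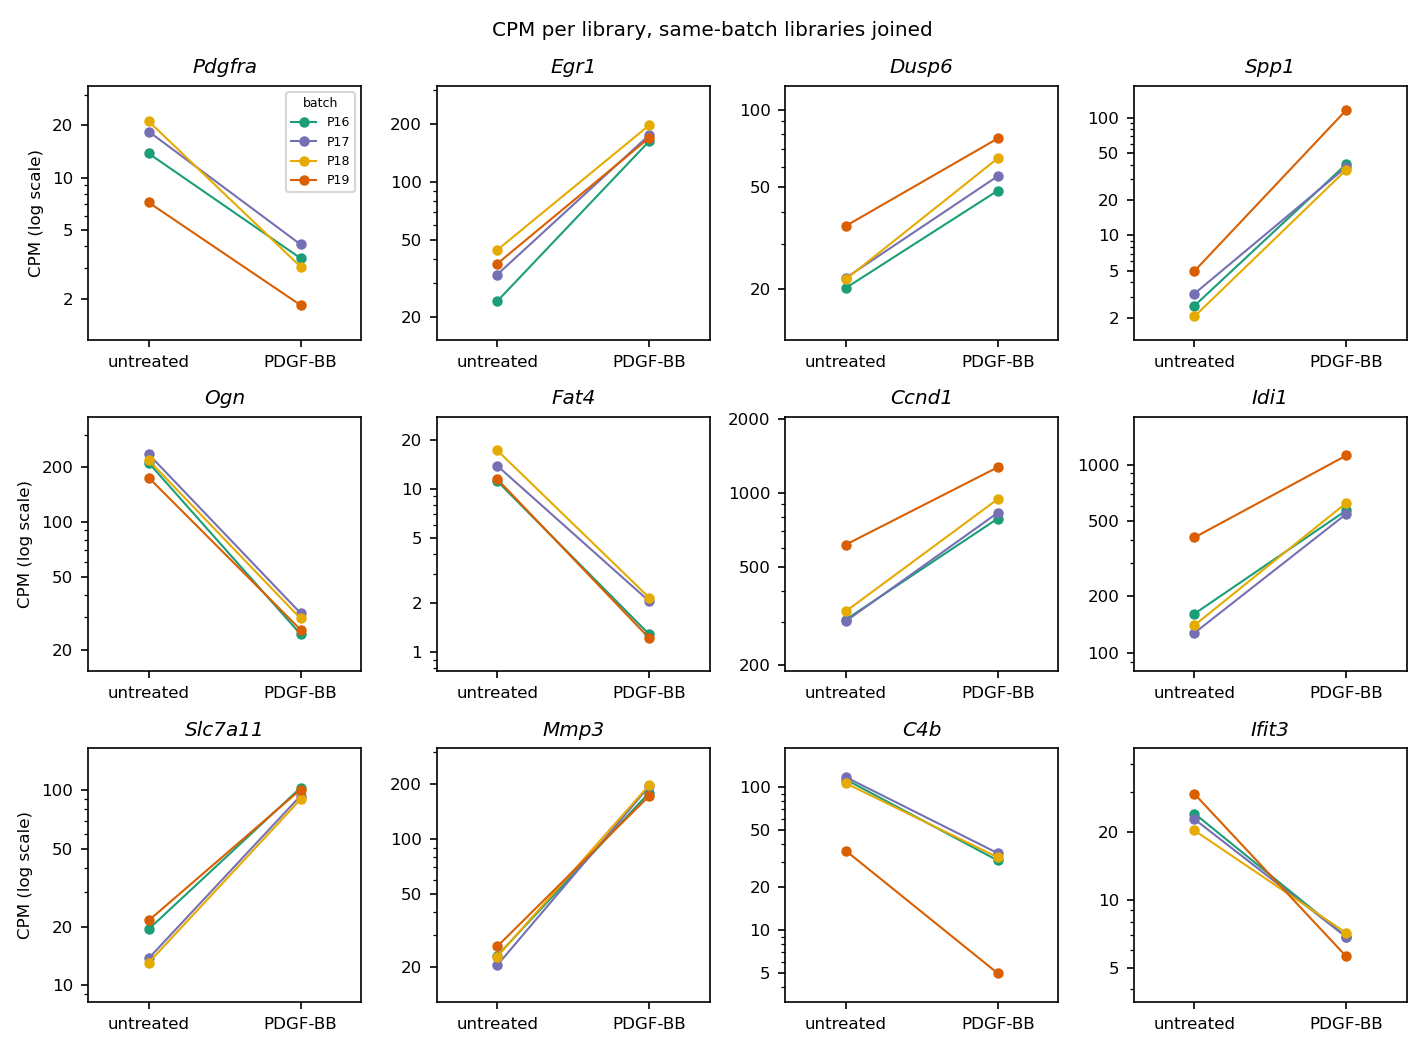
CPM of 12 genes on log axes in the 4 untreated and 4 PDGF-BB libraries, with lines joining libraries of the same batch. P19 lay apart in level for genes such as Idi1 (411 CPM untreated against 128 to 162 in the other batches) and C4b (35.9 against 106 to 117).

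Among cell cycle genes outside mitosis and replication, more rose than fell. Of 18 G1 cyclins, cyclin-dependent kinases, their inhibitors and pocket proteins, 11 rose and 3 fell (median 0.59). Ccnd1, cyclin D1, read 306, 302, 331 and 618 CPM in untreated libraries and 788, 832, 945 and 1273 CPM under PDGF-BB (log2 change 1.37 with SE 0.23, adjusted p = 0.000226, and 0.0577 without pairing by batch). The groups did not overlap, but untreated P19 lay far above the other untreated libraries. Ccne2, cyclin E2, rose from 4 ± 0.773 to 23.1 ± 5.76 CPM (log2 change 2.52 with SE 0.17, adjusted p = 8.42e-12) and the pocket protein gene Rbl1 from 11.8 ± 1.59 to 61.1 ± 6.59 CPM (log2 change 2.37 with SE 0.09, adjusted p = 9.74e-17). The list also holds inhibitors: Cdkn2d, the CDK4 and CDK6 inhibitor INK4d, went from 7.35 ± 0.582 to 26.4 ± 1.65 CPM (log2 change 1.85 with SE 0.13, adjusted p = 1.75e-11). Cdkn1c, the inhibitor p57, fell from 2.71 ± 0.761 to 0.799 ± 0.259 CPM, and Cdkn1b, the inhibitor p27, fell by little (224 ± 13 to 204 ± 24.9 CPM, log2 change -0.14 with SE 0.05, adjusted p = 0.0121; 0.349 without pairing by batch, 0.057 without the P18 PDGF-BB library and 0.176 without the P19 untreated library). Of 22 p53 target genes, 13 rose and 4 fell (median 0.29), led by the death receptor gene Tnfrsf10b (44.8 ± 7.02 to 83.8 ± 15.4 CPM, log2 change 0.90 with SE 0.08, adjusted p = 2.3e-09). The antiproliferative gene Btg2 rose from 32.5 ± 8.43 to 49.2 ± 9.8 CPM and the stress cytokine Gdf15 from 5.29 ± 1.16 to 7.97 ± 1.78 CPM.

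Genes that FoxO factors or growth arrest are known to raise moved the other way. Of 19 tested, 14 fell and 2 rose (median -0.35). Pik3ip1, an inhibitor of PI3 kinase, fell from 72.6 ± 4.76 to 39.8 ± 6.55 CPM (log2 change -0.88 with SE 0.07, adjusted p = 5.95e-11). The ubiquitin ligase gene Fbxo32, known from muscle atrophy, fell from 72.7 ± 5.9 to 41.5 ± 5.54 CPM and Ypel3 from 42.1 ± 3.33 to 22.6 ± 3.92 CPM.

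Cholesterol synthesis had the highest median of the 42 lists outside mitosis and replication. Of 25 genes listed, 24 passed the filter on low counts, and 24 of 24 rose, 20 of them at least 2-fold, with a median log2 fold change of 1.41. The list covers the path from acetyl-CoA to cholesterol with its regulators Srebf2 and Insig1. Idi1, isopentenyl-diphosphate isomerase, read 162, 128, 141 and 411 CPM in untreated libraries and 572, 548, 627 and 1118 CPM under PDGF-BB (log2 change 1.92 with SE 0.26, adjusted p = 3.98e-05, and 0.0649 without pairing by batch). It rose in each batch, with P19 the highest library of either group. Acat2, an acetyl-CoA acetyltransferase, rose from 63.3 ± 40.1 to 200 ± 69.7 CPM (log2 change 1.79 with SE 0.12, adjusted p = 1.03e-08) and Cyp51, lanosterol demethylase, from 185 ± 105 to 558 ± 168 CPM (log2 change 1.73 with SE 0.22, adjusted p = 1.86e-05, and 0.056 without pairing).

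Batch P19 differed here in level and in ratio. P19 was the highest library for 24 of 24 genes in both groups, and its ratio of PDGF-BB to untreated was the lowest of the 4 batches for 24 of 24. Of all 15103 genes tested, P19 was the highest for 5083 untreated and 5638 under PDGF-BB, and its ratio was the lowest for 3994. The median log2 ratio was 1.41, 1.56 and 1.47 in P16, P17 and P18 and 1.03 in P19. Without P19, all 24 were still called, with a median of 1.47. Without pairing by batch, 13 of 24 were called. A sterol regulatory element, the site that SREBP factors bind, was searched as TCACNCCAC on both strands of RefSeq promoter windows (GRCm38.p6, 250 bases before to 50 after a gene start). It was found for 1 of the 17 list members with a window, Hmgcs1, and for 1.44% of the 27025 genes with one. The Hmgcs1 stretch at chr13:119690168-119690267 (plus strand) is shown because it holds that match, in capitals.
Hmgcs1: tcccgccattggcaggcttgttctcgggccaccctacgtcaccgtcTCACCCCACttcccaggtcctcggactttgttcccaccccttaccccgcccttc
Hmgcs1, the cytosolic HMG-CoA synthase, rose from 285 ± 118 to 722 ± 136 CPM (log2 change 1.43 with SE 0.17, adjusted p = 1.29e-05). The other 16 members with a window hold no such run of letters there.

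**Figure D3:**
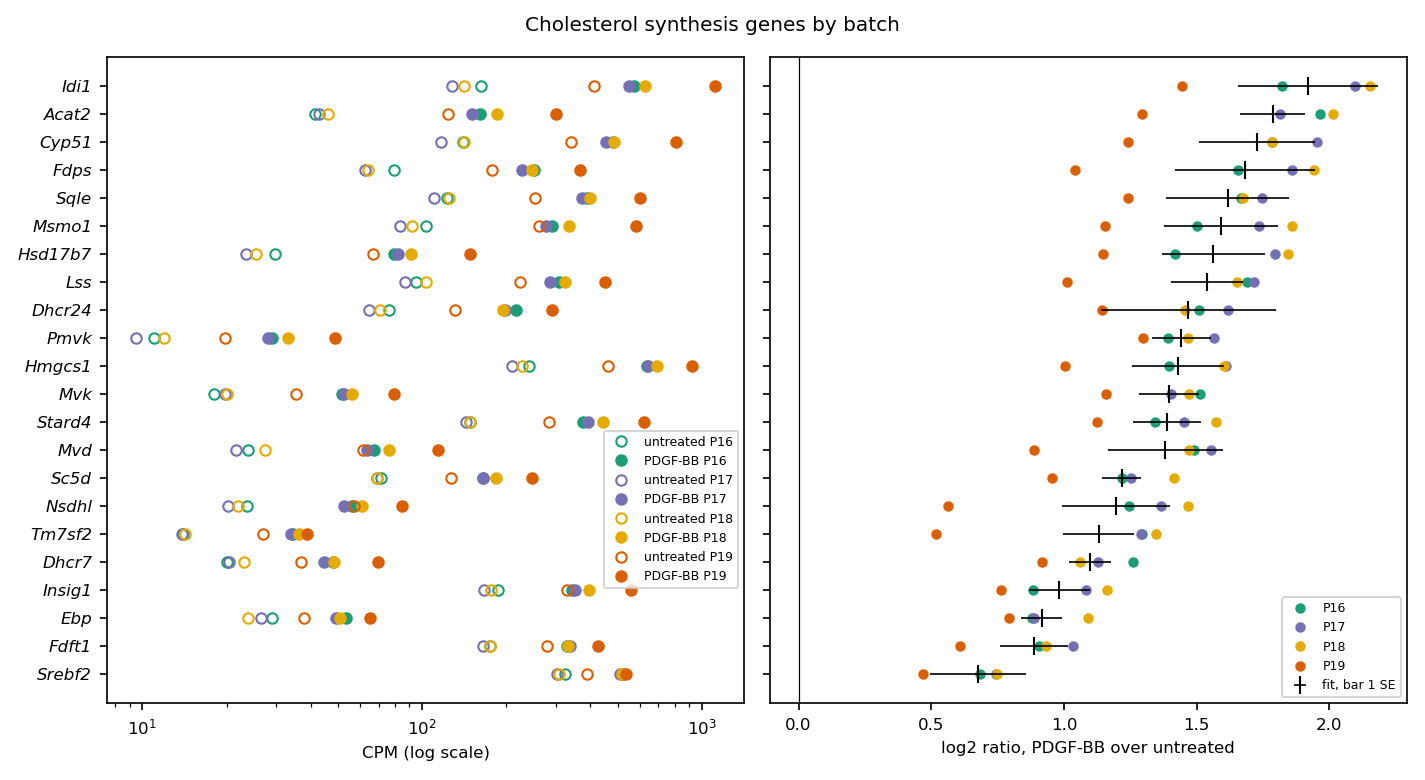
Left: CPM on a log axis of 22 of the 24 cholesterol synthesis genes in each library, open circles untreated and filled circles PDGF-BB, coloured by batch. Right: log2 ratio within each batch, and the fitted log2 fold change with a bar of 1 SE. All ratios lie above 0, and that of P19 is the lowest for each gene shown.

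Fatty acid synthesis followed, with 13 of 14 higher and 1 lower (median 0.92). Elovl6, a fatty acid elongase, read 21.1, 17.6, 22.2 and 46.5 CPM in untreated libraries and 89, 88.8, 93.3 and 151 CPM under PDGF-BB (log2 change 2.04 with SE 0.08, adjusted p = 4.83e-16), and the acyl-CoA synthetase gene Acsl3 rose from 46.3 ± 16.3 to 114 ± 32.6 CPM (log2 change 1.32 with SE 0.08, adjusted p = 6.49e-13). The member that fell was Acacb, the mitochondrial acetyl-CoA carboxylase that restrains fatty acid oxidation (10.2 ± 2.14 to 4.18 ± 1.39 CPM, log2 change -1.28 with SE 0.20, adjusted p = 9.42e-06).

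Other biosynthetic lists were higher in most of their members. Of 21 glycolysis genes, 17 rose and 2 fell (median 0.48). Pgk1, phosphoglycerate kinase, read 358, 295, 259 and 263 CPM in untreated libraries and 731, 686, 612 and 558 CPM under PDGF-BB (log2 change 1.15 with SE 0.07, adjusted p = 5.43e-11), and the lactate exporter Slc16a3 rose from 11.4 ± 2.43 to 28 ± 8.06 CPM (log2 change 1.29 with SE 0.12, adjusted p = 2.72e-09) and hexokinase 2, Hk2, from 30.6 ± 4.47 to 65.3 ± 4.05 CPM. In nucleotide and folate synthesis, 19 of 22 rose and 1 fell (median 0.61), led by the mitochondrial folate enzymes Mthfd2 (5.28 ± 1.88 to 30.3 ± 9.42 CPM, log2 change 2.54 with SE 0.20, adjusted p = 2.62e-09) and Mthfd1l (28.8 ± 2.75 to 109.6 ± 7.99 CPM, log2 change 1.93 with SE 0.06, adjusted p = 1.24e-17) and the cytosolic Shmt1 (12.2 ± 1.42 to 31.9 ± 5 CPM). In ribosome biogenesis, 28 of 32 rose and 1 fell (median 0.57). The nucleolar proteins Nop56 (67.2 ± 3.68 to 151 ± 20.5 CPM, log2 change 1.17 with SE 0.06, adjusted p = 1.13e-14) and Dkc1 (26.7 ± 0.254 to 56 ± 10.8 CPM) and the processing factor Rrp12 (22 ± 1.03 to 40.8 ± 4.2 CPM) rose, and the nucleolar chaperone Npm1 was the member that fell (1857 ± 159 to 1484 ± 202 CPM, log2 change -0.33 with SE 0.05, adjusted p = 1.53e-05). Endoplasmic reticulum chaperones rose in 18 of 21 cases and fell in none (median 0.54). Hspa5, the chaperone BiP, went from 406 ± 17.8 to 717 ± 77 CPM (log2 change 0.81 with SE 0.05, adjusted p = 9.6e-13), Hsp90b1 from 892 ± 57.4 to 1615 ± 82.1 CPM and Manf from 58 ± 4.76 to 118 ± 9.37 CPM. Oxidative phosphorylation subunits rose by less: 32 of 44 rose and none fell, with a median of 0.29, and the complex III subunit Uqcrq rose from 31.2 ± 5.59 to 48.9 ± 7.33 CPM, Ndufs8 of complex I from 26.9 ± 3.42 to 40.04 ± 4.32 CPM and Cox6a1 of complex IV from 68.6 ± 7.57 to 101 ± 15.1 CPM. Without pairing by batch, 23 of the 44 were called.

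Genes of the amino acid response governed by ATF4 rose in 15 of 21 cases and fell in 3 (median 0.51). Psat1, of serine synthesis, rose from 67.7 ± 11.8 to 234 ± 46.4 CPM (log2 change 1.79 with SE 0.06, adjusted p = 2.29e-17). Slc7a11, the cystine transporter of the glutathione supply, read 19.4, 13.8, 13.1 and 21.5 CPM in untreated libraries and 103, 93.7, 89.9 and 101 CPM under PDGF-BB (log2 change 2.58 with SE 0.26, adjusted p = 1.98e-06), with no overlap. The composite element that CHOP and ATF4 bind was searched as TGATGNAA on both strands of the same windows. It was found for 6 of the 18 members with a window, 3 of the 13 that rose, 1 of the 3 that fell and 2 of the 2 not called, and for 4.51% of all genes with a window. The Slc7a11 stretch at chr3:50443626-50443725 (minus strand) is shown because it holds 2 matches in opposite orientation, in capitals.
Slc7a11: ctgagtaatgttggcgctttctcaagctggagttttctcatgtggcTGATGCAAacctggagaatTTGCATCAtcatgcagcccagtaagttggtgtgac
Vldlr, a lipoprotein receptor on the same list and also with a match, fell from 73.6 ± 8.93 to 28.4 ± 6.29 CPM (log2 change -1.39 with SE 0.10, adjusted p = 3.52e-09). Also lower were Ddit3, the gene of CHOP itself (log2 change -0.49), and Slc38a2 (-0.22), neither with a match. Psat1 had no match either, while the uncalled Chac1 and Trib3 each had one.

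Slc7a11 is also a target of NRF2, the factor of the antioxidant response, whose list had 13 of 20 higher and 4 lower (median 0.56), with 2 lower without pairing by batch. The NADPH-forming enzyme G6pdx rose from 46.3 ± 7.1 to 119 ± 7.31 CPM (log2 change 1.37 with SE 0.07, adjusted p = 1.69e-14) and the quinone reductase Nqo1 from 30.6 ± 9.33 to 67.2 ± 13.9 CPM (log2 change 1.17 with SE 0.12, adjusted p = 1.34e-07). Lysosome and autophagy genes went the other way, with 21 of 35 lower and 9 higher (median -0.34). The cathepsins Ctsf (21.8 ± 2.6 to 7.76 ± 0.688 CPM, log2 change -1.49 with SE 0.09, adjusted p = 4.96e-13) and Ctsl (438 ± 39.2 to 235 ± 18.3 CPM, log2 change -0.90 with SE 0.04, adjusted p = 5.11e-15) fell, as did the lysosomal membrane protein gene Scarb2 (277 ± 21.5 to 162 ± 15.5 CPM).

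Of 25 contractile genes listed, 20 were tested, 4 rose and 5 fell. The share called, 45.0%, was below the 54.5% of all genes, and the median of -0.15 changed sign with the setting (range -0.29 to 0.03). Acta2 read 194, 211, 219.6 and 223 CPM in untreated libraries and 108, 121, 116 and 96.5 CPM under PDGF-BB (log2 change -0.93 with SE 0.14, adjusted p = 7.27e-05), with every PDGF-BB library below every untreated one. Smoothelin, Smtn, rose from 46.7 ± 3.32 to 95.5 ± 5.52 CPM (log2 change 1.03 with SE 0.09, adjusted p = 2.39e-09). Tagln lay at 0.714, 1.03, 1.65 and 0.847 CPM and 0.449, 0.411, 0.79 and 0.458 CPM and was not called (adjusted p = 0.0576), though it was in 6 alternatives, among them without untreated P16 (0.0174). Of the regulators of smooth muscle identity, 5 of 18 rose and 7 fell, the latter 4 without pairing by batch. Of these 18, 66.7% were called, against 54.5% of all genes, and their median was -0.03. The ternary complex factor gene Elk4 rose from 35.6 ± 1.48 to 48.8 ± 2.48 CPM and the repressor Zeb2 fell from 92.4 ± 3.4 to 72.4 ± 8.51 CPM. The coactivator Myocd, at 2.5 ± 0.685 CPM and 1.84 ± 0.806 CPM, was not called (adjusted p = 0.246). Its partner Srf rose slightly from 19.9 ± 1.31 to 23.8 ± 3.32 CPM (log2 change 0.26 with SE 0.10, adjusted p = 0.0357), a call lost without P19 (adjusted p = 0.235), without pairing by batch (0.124) and in 10 other alternatives. Klf4, a factor that represses contractile genes, rose from 292 ± 12.7 to 369 ± 6.65 CPM (log2 change 0.34 with SE 0.06, adjusted p = 4.62e-05), and Tbx18 fell from 111 ± 6.39 to 61.9 ± 8.02 CPM (log2 change -0.84 with SE 0.14, adjusted p = 0.000238).

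Of 15 markers of the synthetic state, 7 were higher and 5 lower, and 2 lower without pairing by batch. Spp1, osteopontin, read 2.52, 3.19, 2.04 and 4.98 CPM in untreated libraries and 40.4, 38.2, 36.1 and 116 CPM under PDGF-BB (log2 change 4.10 with SE 0.15, adjusted p = 1.05e-16). It rose in every batch, as the rule for naming it required, and P19 under PDGF-BB lay well above the other PDGF-BB libraries. Mgp, matrix Gla protein, rose from 17.1 ± 4.26 to 56.3 ± 7.94 CPM (log2 change 1.74 with SE 0.11, adjusted p = 1.66e-11), while Tnc, tenascin C, fell from 28.2 ± 10.5 to 8.23 ± 0.868 CPM (log2 change -1.72 with SE 0.13, adjusted p = 8.86e-10). In the actin and adhesion list, 10 of 25 rose and 5 fell, and 60.0% were called against 54.5% of all genes. Profilin, Pfn1, rose from 392 ± 17.1 to 669.9 ± 51.6 CPM (log2 change 0.77 with SE 0.06, adjusted p = 2.27e-10), and zyxin, Zyx, fell from 610.2 ± 22.7 to 369 ± 51.9 CPM (log2 change -0.73 with SE 0.08, adjusted p = 1.03e-06), as did the bundling protein fascin, Fscn1 (27.9 ± 3.58 to 16.2 ± 1.74 CPM).

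Small leucine-rich proteoglycans, which organise collagen fibrils, had the lowest median of the 42 lists: of 12 genes listed 10 were tested, 8 fell, 7 of them at least 2-fold, and none rose (median -1.50). Ogn, osteoglycin, read 211, 235, 218 and 175 CPM in untreated libraries and 24.3, 31.7, 29.6 and 25.7 CPM under PDGF-BB (log2 change -2.91 with SE 0.17, adjusted p = 6.43e-09). Dcn, decorin, read 1442, 1646, 1663 and 1618 CPM and 578, 752, 764 and 563 CPM (log2 change -1.27 with SE 0.07, adjusted p = 3.07e-13). No library of one group reached the other in either gene. Omd fell from 28.4 ± 2.26 to 9.72 ± 1.62 CPM and Fmod, fibromodulin, from 9.73 ± 0.907 to 3.6 ± 1.09 CPM. Lum, lumican, was called lower at low counts (log2 change -2.47 with SE 0.55, adjusted p = 0.000537). Its counts were 17, 25, 17 and 23 in the untreated libraries of P16 to P19 and 1, 0, 10 and 2 under PDGF-BB, most of them in P18. The log2 change was -4.04 without P18 and ran from there to -1.87, without the P17 PDGF-BB library, over the alternatives.

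Of 23 collagens, 7 were higher and 7 lower, shares close to the 28.3% and 26.2% of all genes called in each direction. The basement membrane zone collagen gene Col15a1 read 2.44, 2.82, 1.9 and 0.44 CPM in untreated libraries and 23.4, 20.6, 21.2 and 6.36 CPM under PDGF-BB (log2 change 3.27 with SE 0.24, adjusted p = 2.56e-10). It rose in all 4 batches from a lower level in P19. Col1a1, the main fibrillar collagen chain, rose from 2149 ± 266 to 3016 ± 516 CPM (log2 change 0.48 with SE 0.08, adjusted p = 0.000104), and the fibril-associated Col14a1 fell from 327 ± 95.9 to 136 ± 48.3 CPM (log2 change -1.27 with SE 0.17, adjusted p = 2.44e-05), and the minor fibrillar chain Col11a1 fell from 13.5 ± 1.88 to 6.23 ± 0.86 CPM. Of 18 elastic fibre genes, 6 were higher and 6 lower, also close to the shares of all genes: fibulin-5, Fbln5, fell from 137 ± 8.56 to 50.8 ± 5.27 CPM (log2 change -1.44 with SE 0.15, adjusted p = 3.17e-06), the cross-linking enzyme Lox fell from 468 ± 45.7 to 273 ± 23.4 CPM (log2 change -0.77 with SE 0.06, adjusted p = 7.09e-11), and elastin itself, Eln, rose from 0.836 ± 0.259 to 2.38 ± 0.521 CPM. The lysyl oxidase relative Loxl3 rose from 31.2 ± 0.991 to 62 ± 4.17 CPM.

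**Figure D4:**
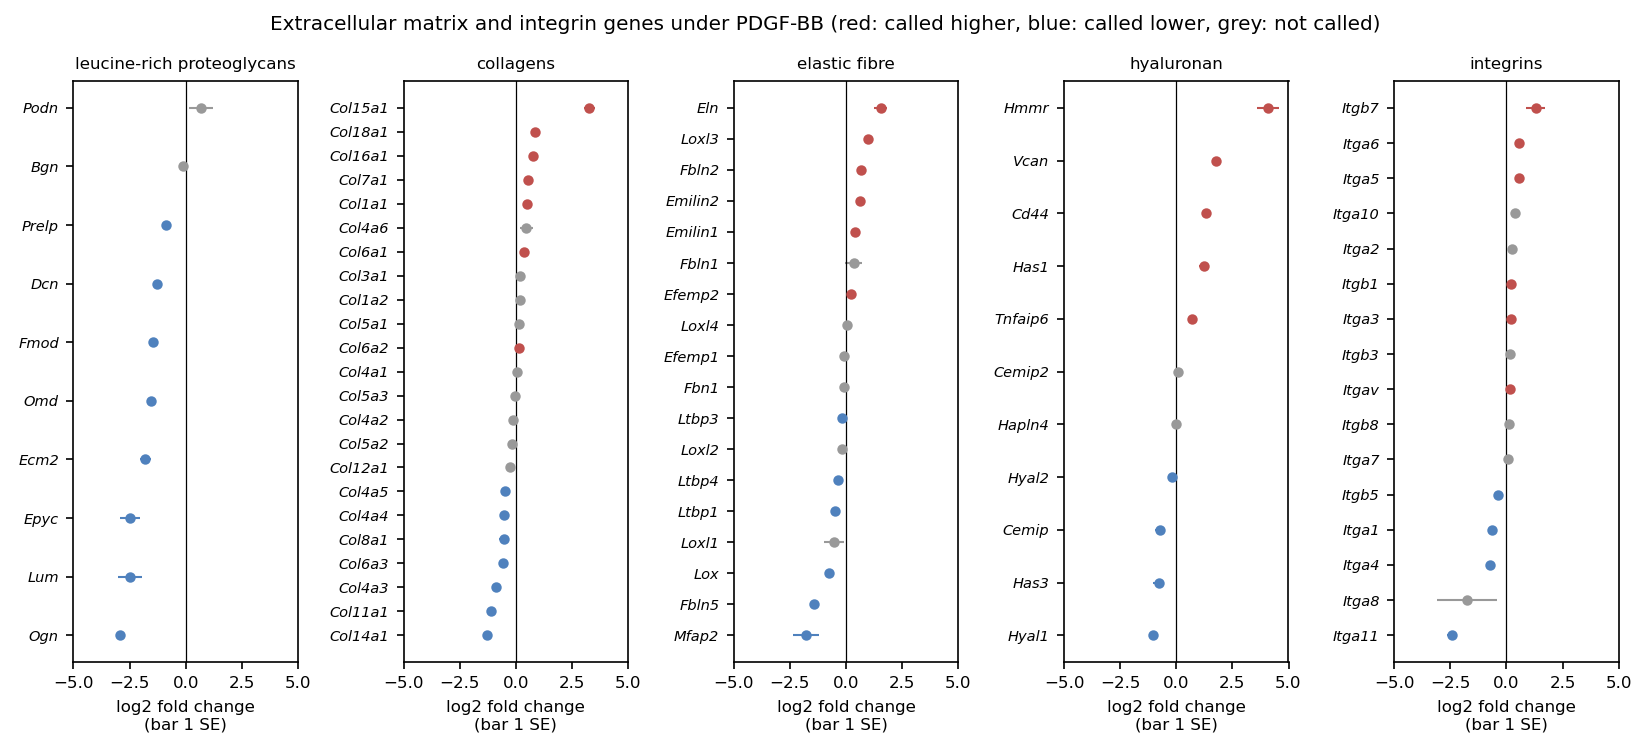
Fitted log2 fold change under PDGF-BB with bars of 1 SE for the tested small leucine-rich proteoglycans, collagens, elastic fibre genes, hyaluronan genes and integrins. Ogn at -2.91 and Dcn at -1.27 lie left of 0 with most of their list, while collagens run from Col14a1 at -1.27 to Col15a1 at 3.27.

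Among matrix proteases and their inhibitors, 6 of 25 rose and 12 fell (median -0.25). Mmp3, stromelysin-1, read 23, 20.4, 22.7 and 25.9 CPM in untreated libraries and 179.8, 195, 197 and 172 CPM under PDGF-BB (log2 change 3.04 with SE 0.25, adjusted p = 2.79e-07), and the collagenase gene Mmp13 read 20.3, 18.3, 22.5 and 34.2 CPM and 43.8, 50.5, 61 and 111 CPM (log2 change 1.42 with SE 0.23, adjusted p = 0.000194). The inhibitor Timp1 rose too, from 10.2 ± 0.683 to 27.5 ± 2.81 CPM (log2 change 1.44 with SE 0.10, adjusted p = 1.66e-11). Among those that fell were Mmp11, stromelysin-3, from 104 ± 16.2 to 43.3 ± 6.76 CPM (log2 change -1.27 with SE 0.06, adjusted p = 2.62e-15), and the protease gene Adamts6, from 37.2 ± 8.92 to 16.4 ± 4.36 CPM. The inhibitors Timp2 and Timp3 were called lower by less than 2-fold. Timp3 fell from 1836 ± 102 to 1453 ± 49 CPM (log2 change -0.34 with SE 0.06, adjusted p = 7.41e-05). Timp2 went from 1994 ± 115 to 1836 ± 124 CPM (adjusted p = 0.0196, 0.205 without pairing by batch and above the threshold in 4 other alternatives, among them 0.0537 without the P19 untreated library). Of 11 hyaluronan genes, 5 rose and 4 fell, with 2 lower without pairing by batch. The proteoglycan versican, Vcan, rose from 81.2 ± 11.6 to 272 ± 37.9 CPM (log2 change 1.76 with SE 0.18, adjusted p = 2.77e-06) and the receptor Cd44 from 91.2 ± 11 to 228 ± 29.6 CPM (log2 change 1.32 with SE 0.06, adjusted p = 2e-15). Hmmr, which also serves the spindle, rose from 10.9 ± 7.23 to 153 ± 9.89 CPM. Hyal1, a hyaluronidase, fell from 10.6 ± 1.7 to 5.22 ± 1.46 CPM (log2 change -1.04 with SE 0.17, adjusted p = 1.48e-05). The hyaluronan-degrading Cemip was called lower (280.1 ± 59.6 to 163 ± 6.59 CPM, adjusted p = 0.0114, 0.088 without pairing by batch and 0.0522 without P18), as was the synthase gene Has3 (2.02 ± 0.617 to 1.19 ± 0.465 CPM, adjusted p = 0.00841, with the call lost in 4 alternatives, among them 0.132 without P18 and 0.0576 without P19). Among integrins, 6 of 16 rose and 4 fell, and 62.5% were called against 54.5% of all genes. The collagen receptor subunit Itga11 fell from 7.72 ± 1.34 to 1.44 ± 0.512 CPM (log2 change -2.42 with SE 0.23, adjusted p = 5.07e-09) and the fibronectin receptor subunit Itga5 rose from 71.8 ± 5.69 to 105 ± 7.94 CPM (log2 change 0.55 with SE 0.05, adjusted p = 5.75e-10). The laminin receptor subunit Itga6 rose from 20.1 ± 3.33 to 29.6 ± 3.76 CPM and the VCAM-1 receptor subunit Itga4 fell from 22.1 ± 2.07 to 13.3 ± 2.41 CPM.

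The TGF-beta, WNT and Hippo lists each had more members lower than higher. In the TGF-beta and BMP list, 13 of 29 fell and 4 rose (median -0.24). Id2, a BMP target, fell from 77.5 ± 7.44 to 36.9 ± 4.79 CPM (log2 change -1.08 with SE 0.09, adjusted p = 8.81e-09), and the activin subunit Inhbb fell from 66.3 ± 5.88 to 37.9 ± 8.71 CPM. In the WNT list, 12 of 22 fell and 3 rose (median -0.43), with the secreted protein Dkk3 (47.3 ± 6.72 to 19.4 ± 4.29 CPM, log2 change -1.29 with SE 0.08, adjusted p = 9.6e-13) and the receptors Fzd8 (141 ± 11.7 to 65 ± 6.86 CPM, log2 change -1.12 with SE 0.06, adjusted p = 2.4e-14) and Fzd1 (43.9 ± 5.44 to 20.3 ± 2.42 CPM) falling. Fat cadherins and Hippo genes fell in 11 of 17 cases and rose in 1 (median -0.30). Fat4, a giant protocadherin, read 11.1, 13.8, 17.2 and 11.4 CPM in untreated libraries and 1.29, 2.05, 2.16 and 1.22 CPM under PDGF-BB (log2 change -3.00 with SE 0.15, adjusted p = 1.72e-14). The YAP target Ccn2 read 243, 235, 211 and 283 CPM and 111, 99.6, 89.3 and 165 CPM (log2 change -1.09 with SE 0.11, adjusted p = 4.82e-07), lower in every batch, and Amotl2 fell from 226 ± 12.6 to 117 ± 4.03 CPM.

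Of 14 Notch genes, 5 were higher and 5 lower. Notch3, the receptor typical of mural cells, fell from 13.2 ± 2.07 to 5.97 ± 1.16 CPM (log2 change -1.15 with SE 0.14, adjusted p = 1.55e-07), and Notch1 and its feedback inhibitor Nrarp rose from 12.2 ± 0.695 to 23.6 ± 3.26 CPM (log2 change 0.95 with SE 0.12, adjusted p = 5.48e-07) and from 14.6 ± 2.9 to 41.9 ± 6.83 CPM (log2 change 1.52 with SE 0.17, adjusted p = 7.9e-07). In the IGF list, 5 of 14 rose and 5 fell, and Stc1, stanniocalcin-1, an inhibitor of a protease of IGF-binding proteins, rose from 4.37 ± 0.873 to 32.6 ± 8.19 CPM (log2 change 2.94 with SE 0.26, adjusted p = 1.41e-07), as did its relative Stc2 (19.9 ± 2.25 to 41.9 ± 4.43 CPM) and the binding protein Igfbp4 (3.83 ± 0.402 to 7.97 ± 1.49 CPM). The members that fell were Insr, the insulin receptor, from 95.2 ± 2.9 to 67.3 ± 1.87 CPM (log2 change -0.50 with SE 0.05, adjusted p = 8.96e-09), Igf2r, a clearance receptor of IGF2, from 182 ± 12.3 to 148 ± 7.37 CPM, the adaptors Irs1 and Irs2 from 67.5 ± 3.91 to 53.3 ± 4.53 CPM and from 49.3 ± 2.56 to 43.7 ± 2.35 CPM, and the binding protein Igfbp2 at low CPM (1 ± 0.742 to 0.366 ± 0.338 CPM, adjusted p = 0.00798, and 0.151 without pairing by batch). The call of Irs2 was lost without the P18 untreated library (0.0682). Without pairing by batch, 3 of the 14 were higher and 4 lower. Of 29 guidance genes, 13 fell and 8 rose: Sema5a, a transmembrane semaphorin, read 14.2, 18.2, 18.9 and 13 CPM in untreated libraries and 2.86, 3.23, 3.32 and 4.22 CPM under PDGF-BB (log2 change -2.23 with SE 0.25, adjusted p = 3.76e-06), and Slit3 fell from 12.7 ± 1.44 to 5.85 ± 0.796 CPM and Sema3d from 38.8 ± 1.54 to 20.7 ± 5.8 CPM. The neuropilin gene Nrp2 was among those that rose, from 8.42 ± 1.14 to 14.4 ± 2.09 CPM.

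Genes of innate defence fell in 2 lists. Of 13 complement genes, 9 fell and none rose (median -0.64). C4b, complement component 4B, read 113, 117, 106 and 35.9 CPM in untreated libraries and 30.7, 34.5, 32.3 and 4.99 CPM under PDGF-BB (log2 change -1.94 with SE 0.17, adjusted p = 3.82e-07). It fell in every batch, and P19 was the lowest library of both groups. Its neighbour C4a is a near-identical copy between which reads may be divided. The lectin pathway protease gene Masp1 fell from 20.3 ± 3.62 to 5.44 ± 1.67 CPM (log2 change -1.93 with SE 0.12, adjusted p = 2.12e-12).

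Of 29 interferon-stimulated genes tested, 18 fell and 1 rose (median -0.63), and without P19 20 fell and none rose. Ifit3, an antiviral RNA-binding family member, read 24.1, 22.8, 20.3 and 29.5 CPM in untreated libraries and 6.84, 6.83, 7.11 and 5.6 CPM under PDGF-BB (log2 change -1.85 with SE 0.13, adjusted p = 1.26e-10). The groups did not overlap, but Ifit3b is a near-identical copy between which reads may be divided. The guanylate-binding protein gene Gbp2 fell from 8.45 ± 1.6 to 4.48 ± 1.77 CPM (log2 change -0.92 with SE 0.19, adjusted p = 0.000255) and Oasl2 from 13.1 ± 4.03 to 6.23 ± 2.06 CPM (log2 change -1.07 with SE 0.14, adjusted p = 4.24e-07). The member that rose was Mx1, from 1.2 ± 0.5 to 2.42 ± 0.863 CPM, with an adjusted p of 0.0423 that did not hold in 12 alternatives, among them 0.0642 without P19 and 0.173 without the P16 PDGF-BB library. The interferon-stimulated response element, bound by STAT and IRF complexes, was searched as the run GAAA followed by any 2 bases and a second GAAA, on both strands of the RefSeq windows. It was found for 12 of the 20 members with a window, 8 of the 13 that fell and 4 of the 7 not called, against 3.99% of all genes with a window. The stretches of the called members with a match and the largest falls at a mean of at least 5 CPM are shown, matches in capitals: Ifit3 at chr19:34583328-34583427 and Gbp2 at chr3:142620559-142620658, both on the plus strand. None of the printed stretches held a match to another of the 3 elements searched.
Ifit3: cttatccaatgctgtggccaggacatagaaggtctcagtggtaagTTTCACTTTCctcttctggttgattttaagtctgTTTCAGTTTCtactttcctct
Gbp2: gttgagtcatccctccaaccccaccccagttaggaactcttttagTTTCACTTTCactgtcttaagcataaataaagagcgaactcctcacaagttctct
Both hold the reverse complement, with TTTC in place of GAAA, and Ifit3 holds it at 2 places.

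Of the chemokine and inflammatory genes, 8 of 17 rose and 4 fell. The chemokine gene Cxcl1 rose from 16.3 ± 1.79 to 34.9 ± 4.95 CPM (log2 change 1.09 with SE 0.12, adjusted p = 1.47e-07) and Ptgs2, cyclooxygenase-2, from 17.8 ± 4.02 to 40.02 ± 14.5 CPM (log2 change 1.13 with SE 0.11, adjusted p = 3.9e-09), while Csf1, the macrophage growth factor, fell from 61.7 ± 13.9 to 28.7 ± 4.66 CPM (log2 change -1.09 with SE 0.09, adjusted p = 1.43e-09). Of 14 osteochondrogenic genes, 7 rose and 5 fell, and without pairing 2 fell; the phosphate carrier Slc20a1 rose from 18.6 ± 1.58 to 37.4 ± 4.9 CPM and the growth factor gene Bmp4 fell from 173 ± 4.7 to 118 ± 12.9 CPM. Of 21 ion channel and calcium handling genes, 8 were higher and 8 lower, with 5 lower without P19 or without pairing. The calcium channel subunit Cacna2d1 rose from 13.1 ± 2.45 to 32.2 ± 8.38 CPM (log2 change 1.29 with SE 0.13, adjusted p = 3.09e-07) and the calcium sensor Stim1 fell from 47 ± 6.01 to 29.1 ± 1.25 CPM (log2 change -0.68 with SE 0.09, adjusted p = 2.48e-06), as did the inositol trisphosphate receptor gene Itpr2 (39.96 ± 2.84 to 25.8 ± 1.46 CPM). Of 43 vasoactive receptor and cyclic nucleotide genes, 24 could be tested, 6 fell and 4 rose, and the 41.7% called was below the 54.5% of all genes. Among them Npr2, the receptor of C-type natriuretic peptide, fell from 109.5 ± 13.6 to 65.2 ± 9.95 CPM and Ptger4, a prostaglandin E2 receptor, rose from 3.75 ± 0.514 to 8.67 ± 0.922 CPM, as did the purinergic receptor gene P2ry2 (4.61 ± 0.27 to 7.55 ± 1.78 CPM). Circadian genes gave 6 of 15 higher and 5 lower, without P19 3 higher and 3 lower, and without pairing by batch 1 higher and 3 lower. Per2 rose from 18 ± 3.13 to 25.4 ± 7.59 CPM (adjusted p = 6.12e-05, and 0.13 without pairing). Cry1 rose from 10.7 ± 0.752 to 14.4 ± 4.63 CPM (adjusted p = 0.0415, and 0.315 without P19, with the call lost in 9 other alternatives), and Dbp fell from 10.02 ± 1.08 to 7.55 ± 1.45 CPM (adjusted p = 0.0188, and 0.0585 without P19 and 0.0651 without P18). Of 7 imprinted genes tested, 1 rose and 3 fell, among the latter Cdkn1c, Ndn (6.45 ± 1.23 to 4.12 ± 0.504 CPM) and Sgce (54.9 ± 8.98 to 42 ± 3.69 CPM). The share of the 7 called, 57.1%, was close to the 54.5% of all genes.

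The PDGF-BB libraries were also compared directly with the 4 libraries of control cells that received angiotensin II, a vasoconstrictor peptide, at 10 ng/ml for 24 h. Of the same 15103 genes, 8105 (53.7%) were called, 4222 (28%) higher and 3883 (25.7%) lower under PDGF-BB. Without batch P19 there were 7390 calls and without pairing by batch 6405. This comparison shares the PDGF-BB libraries with the one above, and is given through the levels of single genes. Under angiotensin II, Spp1 lay at 2.45 ± 1.33 CPM, against 3.18 ± 1.29 CPM untreated and 57.8 ± 39.2 CPM under PDGF-BB (PDGF-BB over angiotensin II, log2 change 4.49 with SE 0.16, adjusted p = 6.77e-17). Egr1 lay at 35.4 ± 9.73 CPM (log2 change 2.34 with SE 0.23, adjusted p = 1.5e-06) and Ogn at 211 ± 40.5 CPM (log2 change -2.90 with SE 0.17, adjusted p = 7.44e-09). Pdgfra lay at 13.8 ± 6.34 CPM under angiotensin II (log2 change -2.13, adjusted p = 5.75e-06), Idi1 at 232 ± 148 CPM (log2 change 1.78, adjusted p = 7.99e-05) and Acta2 at 209.9 ± 15.8 CPM (log2 change -0.92, adjusted p = 9e-05).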

How the data were processed

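Expected counts per gene, which the authors deposited as one merged RSEM table, were used for the 20 libraries of sequencing run 3. The submitters' processing notes list STAR 2.7.11b, RSEM 1.3.1 and the builds GRCm39 and mm10, with no role or order, so no gene coordinates are given for the table. Whether counting used strand is not given in the sources used here, so a gene and an antisense partner cannot be told apart. A symbol was matched to 51486 of 78334 gene IDs, which held 98.7% of counts.

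Counts were rounded and kept where edgeR's filter passed (minimum count 10, minimum total 15). edgeR 4.0.16 in R 4.3.3 fitted all 20 libraries with TMM factors, group and batch, with a robust quasi-likelihood test and Benjamini-Hochberg adjustment over 15103 genes. The batch pairs libraries per the labels. Deviations from group means correlated at 0.185, 0.103, 0.0939 and 0.439 between the libraries of P16, P17, P18 and P19, so P19 carried most of it, and those of P17 and P18 correlated no better with their own partner than with each other's (0.103 both ways). Alternatives used DESeq2 1.42.0, other scaling, filters, no pairing and each library or batch left out. On simulated counts for the PDGF-BB against untreated comparison with 200 genes changed 2-fold, 191 were tested and 145 (75.9%) were recovered, with 4 false calls. The simulated counts held no batch effect and far fewer changed genes than the 8238 called in the data. These rates therefore do not describe the real comparison.

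Named genes were up to 3 called members per list with the largest change at a mean of at least 5 CPM, moving 1 way in all 4 batches. To these came the 8 largest rises and 8 largest falls that met the same terms, did not overlap between groups, had an established symbol and lay outside the mitosis and replication lists, and a set of PDGF, smooth muscle and cell cycle genes. For list members named this way and for the largest rises and falls, movement 1 way in every batch was thus required. For the latter, lack of overlap was required too. Of all 15103 genes tested, 4867 were higher and 4721 lower in all 4 batches. The members and the 51 lists were chosen with earlier results of these data known. These 41 genes fall outside the rule and were chosen after their values were seen: Adamts6, Areg, Bmp4, Cdh1, Cdkn1c, Cemip, Col1a1, Dcn, Des, Eln, Etv4, Etv5, Fosl1, Has3, Hmgcs1, Hyal1, Igf2r, Igfbp2, Insr, Irs1, Irs2, Itga11, Krt13, Krt19, Krt80, Lmod1, Lrp8, Lum, Mmp11, Muc5ac, Muc5b, Mx1, Npm1, Nrp2, Pttg1, Slurp1, Sprr1a, Tfrc, Timp2, Timp3 and Tnnt2. Of 1069 symbols listed, 3 were not matched. Some genes that the rule names are not reported here.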

Additional observations from a re-analysis of the deposited data

Results flagged for a closer look

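Of 354 groups of 4 libraries examined for the 177 genes reported, 43 held 1 library whose gap to the nearest other was a large share of the group's range, and chance flags about 1 in 20 groups. The library was P19 in 34 of the 43. In untreated cells, P19 was the highest library for Acat2 (123 CPM, the next library at 45.9), Acsl3 (70.5, next 40.7), Cyp51 (342, next 141), Elovl6 (46.5, next 22.2), Hmgcs1 (461, next 242) and Idi1 (411, next 162), all of lipid supply. It was also the highest for Ccnd1 (618, next 331), Hmmr (21.6, next 8.33), Dusp6 (35.3, next 22.1) and Npm1 (2093, next 1802). It was the lowest untreated library for C4b (35.9, next 106), Oasl2 (7.08, next 15), Smoc1 (38.6, next 76.1) and Cdkn1b (204, next 229).

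Under PDGF-BB, P19 was the highest library for Cyp51 (809 CPM, next 485), Elovl6 (151, next 93.3), Idi1 (1118, next 627), Lrp8 (88.4, next 59.4), Spp1 (116, next 40.4), Mcm2 (207, next 157), Mthfd2 (44.4, next 26.5) and Psat1 (303, next 217). The same held for Nop56 (182, next 143), Nqo1 (88, next 61.9), Ndufs8 (46.5, next 38.7), Cry1 (21.3, next 12.8), Cd44 (272, next 217), Spry4 (14.8, next 8.92) and Fgf18 (4.68, next 2.63). P19 was the lowest PDGF-BB library for C4b (4.99, next 30.7), Col15a1 (6.36, next 20.6), Fbxo32 (33.3, next 43.6), Id2 (29.7, next 38.9) and Mxd3 (22.6, next 28.4).

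The other 9 groups involved other batches. Untreated P16 was the highest for the mucin genes Muc5b (32.5 CPM, next 19.3) and Muc5ac (6.97, next 2.71). Untreated P17 was the highest for Cdkn1c (3.84, next 2.44) and the lowest for Pfn1 (366, next 399) and Des (1.08, next 1.34). Untreated P18 was the highest for Nrp2 (10.1, next 7.96). P18 was the highest PDGF-BB library for Insr (70.1, next 66.6), for Tagln (0.79, next 0.458) and for Myh11, where 1 count gave 0.0527 CPM and the other 3 libraries held none.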

How the results depend on the processing

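The counts of calls kept within 1.5 times under every alternative except a minimum fold of 2, which left 1660 genes against no treatment, 788 higher and 872 lower, and 1621 against angiotensin II, 735 higher and 886 lower. Leaving out 1 library or 1 batch gave 7296 to 7764 calls against no treatment, 3663 to 4208 higher and 3286 to 4013 lower. Against angiotensin II the ranges were 7077 to 7609, 3612 to 4050 and 3223 to 3891. Without pairing by batch (no replicate block) there were 6586 and 6405 calls. DESeq2 gave 8007 and 7897 calls. With library totals in place of TMM factors, the median log2 fold change of all genes moved from -0.019 to -0.096, and 42% of the calls against angiotensin II were higher, against 52.1%.

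Among the named genes, 3467 of the values under alternatives kept direction and call, 69 lost the call, 6 gained it and 5 changed sign. The 5 belong to Pdgfc, which was never called: its log2 fold change of -0.06 became 0.03, 0.04, 0.03, 0.02 and 0.01 without PDGF-BB replicate 3, replicate 1, replicate 2, untreated replicate 1 and untreated replicate 2, within a range of -0.3 to 0.04 over the libraries and batches left out. Pdgfb lost its call without batch P16 or P17, and Srf and Mx1 lost theirs in 12 alternatives each. Of the list counts, 1811 kept within 1.5 times and 189 did not. Why calls were lost was not tested. Depth limits the genes near 0 counts: Cnn1 had too few counts to be tested, and no difference between PDGF-BB and untreated cells was detectable for Myh11 (adjusted p = 0.216).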

Other observations

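Some genes best known from epithelia were higher under PDGF-BB. They were picked after their values were seen, so they are given as levels with no test. Muc5b, a gel-forming mucin of airway secretory cells, read 32.5, 19.3, 17 and 17 CPM in untreated libraries of P16 to P19 and 285, 175, 191 and 126 CPM under PDGF-BB. The mucin gene Muc5ac read 6.97, 2.71, 2.24 and 2.2 CPM and 40.7, 27.3, 24.3 and 20.9 CPM. In both genes all PDGF-BB libraries lay above all untreated ones, and P16 was the highest library of each group. Sprr1a, a cornified envelope precursor, read 3.86, 2, 1.65 and 3.28 CPM and 23.8, 21.7, 21.7 and 17.5 CPM. The keratin genes Krt13 and Krt80 went from 2.22 ± 0.358 to 9.8 ± 1.75 CPM and from 27.5 ± 2.39 to 48.3 ± 3.43 CPM, and Slurp1, a secreted protein of squamous epithelium, from 4.12 ± 0.725 to 18.4 ± 4.27 CPM. Beside these, the marker genes Krt19 (188 ± 29.1 to 289 ± 31.3 CPM) and Cdh1, E-cadherin (113 ± 12.4 to 174 ± 16.7 CPM), were called higher, Krt19 not without pairing by batch (adjusted p = 0.055) and Cdh1 not without P17 (0.0551) or without the P19 untreated library (0.0506), while Krt8 was not called and the epithelial markers Epcam, Krt5 and Krt18 were too low to be tested. The part of epithelial cells in these levels was not tested.

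Further genes chosen the same way were the ETS factors Etv4 (8.64 ± 1.28 to 48.2 ± 2.79 CPM) and Etv5 (10.6 ± 1.75 to 37 ± 3.63 CPM), known as targets of ERK, the transferrin receptor gene Tfrc (24 ± 3 to 114 ± 27.8 CPM) and the apolipoprotein E receptor gene Lrp8 (10.4 ± 4.76 to 65.7 ± 15.3 CPM). Each was higher in all 4 PDGF-BB libraries than in any untreated one. How many of all genes share this trait is not given here. Tnnt2, cardiac troponin T, which carries nearly all of the summed striated muscle level, read 17, 18.4, 16.2 and 23.5 CPM and 60.1, 64.2, 61.6 and 62.5 CPM.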
